A study of Mus musculus with 18 samples.

Results

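Transporters that carry bile acids, statins and other drugs into and out of hepatocytes were followed in the liver of mice given a single dose of a statin. The genes were chosen by name, with earlier results of these data known, and comprised Slc10a1, Slco1b2, Abcb11, Abcc2, Abcb4, Abcb1a, Abcb1b and Abcc1. These 8 genes had 9 of the 289 gene probes of a focused cDNA array, since Slc10a1 was represented by 2 probes, and all 9 probes passed the filter on dim signals. Liver RNA was taken from 18 female C57BL/6 mice, 6 in each of 3 groups. All mice, the controls included, were 16 weeks old and had been fed 1% cholesterol for 1 week. They were killed 24 h after 1 oral dose of tap water (vehicle), of rosuvastatin in tap water (20 mg/kg) or of atorvastatin in tap water (40 mg/kg). All groups therefore describe liver under a cholesterol load, and because the doses differ, drug and dose cannot be told apart between the statins.

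Bile acids are made from cholesterol in hepatocytes, secreted into bile, reabsorbed in the gut and taken up again from portal blood. Slc10a1 (NTCP, the sodium-dependent bile acid carrier) and Slco1b2 (OATP1B2, the rodent counterpart of the human OATP1B carriers) work on the blood side of the cell, and carriers of the Slco family also bring statins into the liver. On the side facing the bile canaliculus, Abcb11 (the bile salt export pump), Abcc2 (MRP2, an exporter of conjugates), Abcb4 (which moves phosphatidylcholine into bile) and the rodent P-glycoproteins Abcb1a and Abcb1b export their substrates by hydrolysing ATP. Abcc1 (MRP1) exports conjugates across the basolateral membrane and is scarce in healthy hepatocytes. Nuclear receptors tune this set: the bile acid receptor FXR (Nr1h4) acts with RXR on inverted repeats in DNA and is known to switch on Abcb11, while PXR (Nr1i2) and CAR (Nr1i3) respond to drugs.

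RefSeq promoter windows on mouse assembly GRCm38.p6, running from 250 bases before to 50 bases after a gene start, were matched for 7 of the 8 genes by symbol, as 8 windows, with Abcc1 unmatched. An imperfect inverted repeat with 1 base between its arms, GNCANTGAC on either strand, was picked after the windows had been read and was found in 2 of the 8, Abcb11 and Slco1b2. The same letters were present in 1142 of all 32851 windows (3.48%). Because the motif was taken from the windows themselves, the count of 2 was set by that choice, and the shares cannot be compared. Only the 2 windows with the match are printed. Their genes stand on opposite sides of the hepatocyte, export and uptake, and the capitals mark the match. The window of Abcb11 is chr2:69342567-69342866 on the minus strand, with the match 61 to 53 bases before the start. The window of Slco1b2 is chr6:141629268-141629567 on the plus strand, with the match 86 to 78 bases before the start.
Abcb11: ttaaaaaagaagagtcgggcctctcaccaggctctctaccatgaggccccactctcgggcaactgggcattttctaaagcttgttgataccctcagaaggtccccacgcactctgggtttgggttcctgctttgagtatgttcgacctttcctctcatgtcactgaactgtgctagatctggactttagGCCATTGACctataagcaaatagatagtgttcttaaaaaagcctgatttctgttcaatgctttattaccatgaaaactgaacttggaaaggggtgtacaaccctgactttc
Slco1b2: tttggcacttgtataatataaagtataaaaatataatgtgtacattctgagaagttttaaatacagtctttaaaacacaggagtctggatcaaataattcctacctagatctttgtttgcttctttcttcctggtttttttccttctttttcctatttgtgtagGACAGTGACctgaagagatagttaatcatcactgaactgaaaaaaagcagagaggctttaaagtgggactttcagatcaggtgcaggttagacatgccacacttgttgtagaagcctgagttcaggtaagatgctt
The match is a description of letters, and binding of a factor there was not measured.

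Every value below is the log2 ratio of a mouse over a reference pooled from all samples, normalised so that most probes of an array lie near 0. Since all arrays carried the same dyes, the distance of a probe from 0 can include dye bias, and only differences between mice are read. None of the 9 transporter probes passed an adjusted p of 0.05 in limma in any of the 3 comparisons, and none passed an unadjusted p of 0.05 either. Over the whole array, 0 of 188 probes passed the adjusted threshold in each comparison (0%). An unadjusted p of 0.05 was passed by 6.38% of probes for rosuvastatin against vehicle, 8.51% for atorvastatin against vehicle and 5.32% for atorvastatin against rosuvastatin. No transporter separated any 2 groups without overlap, against a background of 0%, 0% and 0.532% of probes. With rosuvastatin 5 of the 9 probes lay above the vehicle mean (48.4% of all probes did), with atorvastatin 3 of 9 (45.7%), and 3 of 9 were higher with atorvastatin than with rosuvastatin (52.1%). The median difference of the 9 probes was 0.04, -0.02 and -0.03 on the log2 scale in the same order, beside -0.01, -0.01 and 0.01 for all probes. A missed threshold does not show that levels were equal, and the 95% confidence intervals give the sizes that remain possible for the ratios as processed. They ran from -0.39 to 0.43 for rosuvastatin, from -0.35 to 0.43 for atorvastatin and from -0.38 to 0.49 between the statins, with outermost bounds of 1.35-fold, 1.35-fold and 1.40-fold. The first 2 bounds belong to Slco1b2, whose reference was saturated on 8 arrays, and with its saturated spots missing the intervals reached 1.57-fold and 1.54-fold. For the other 8 probes the outermost bounds against vehicle were 1.31-fold and 1.28-fold. The bounds of 1.31-fold and, between the statins, 1.40-fold belong to Abcc1, a dim probe. The background correction added a constant offset to the signals, which shrinks the log2 ratios of dim probes. For Abcc1 and Abcb1b, changes in RNA larger than the printed bounds therefore remain possible. The same holds to a lesser degree for Abcb1a (brightness 268 to 608), which gave the bound of 1.28-fold, and for Abcb4 (347 to 939).

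**Figure D1:**
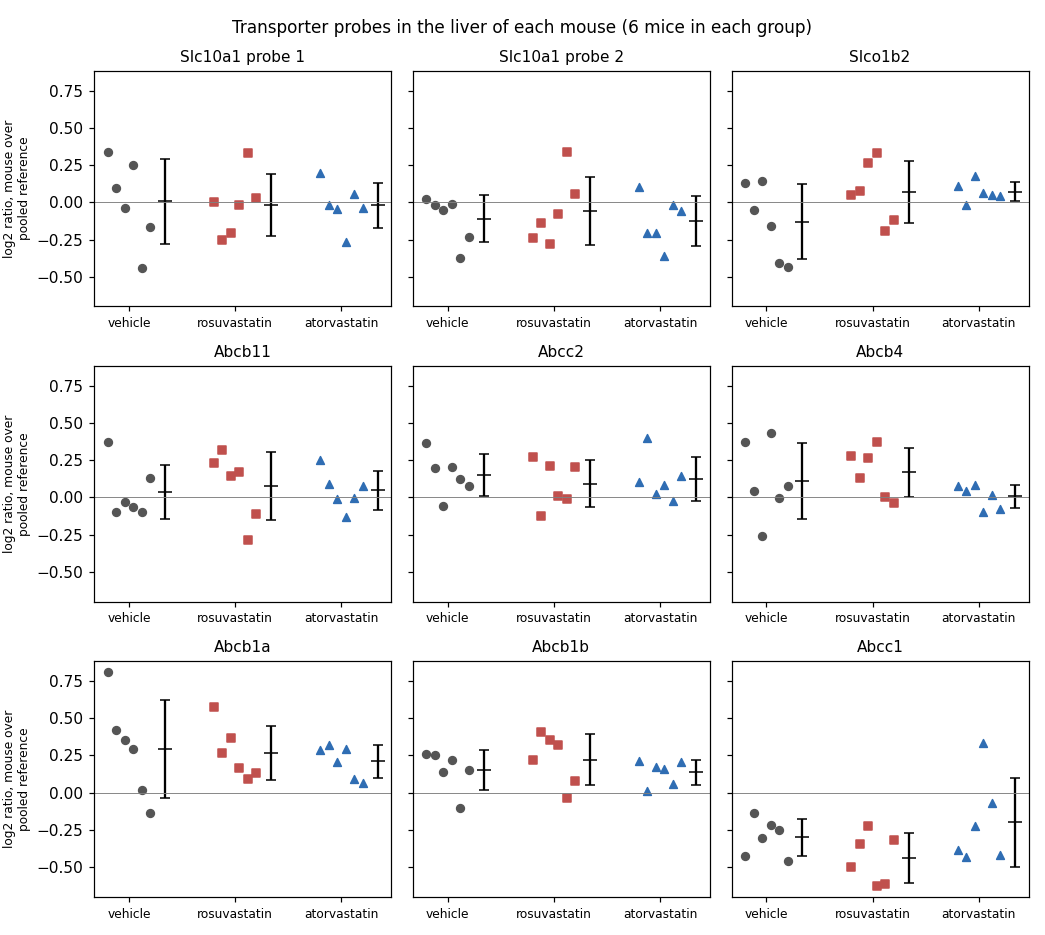
Log2 ratio of each mouse over the pooled reference for the 9 transporter probes, with 6 mice in each group drawn in replicate order from left to right. The bar beside each group is the mean with 1 SD, and the groups of every probe overlap.

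Arrays were of uneven quality, and this touches several results below. Median gene-spot brightness was 206 to 376 in the sample channel and 267.5 to 659.5 in the reference channel, and 155 to 218 gene probes were above background on an array. The arrays of vehicle 5 and atorvastatin 4 stood apart, with median correlations to the other arrays of 0.25 and -0.46. The size of the background ring in the image files also differed: it was 197 pixels on 11 arrays (4 vehicle, 4 rosuvastatin and 3 atorvastatin) and 212 to 228 pixels on the other 7. The hepatocyte identity of the tissue was borne out by Alb, Apoa1, Cyp2e1, Hnf4a and Apoc3 on all 18 arrays and by Cyp7a1 on 11. Defining markers of bile duct, Kupffer cells, endothelium and stellate cells had no probe. Of the fat markers, Adipoq was above background on 9 arrays and Lep on 0. In whole liver RNA, fewer cells of a type and less RNA per cell cannot be told apart.

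Of the uptake carriers, Slco1b2 showed the largest difference of the transporters from vehicle, in the same direction with both statins and short of the threshold. In vehicle mice its log2 ratio ran from -0.43 to 0.14 (median -0.11). It ran from -0.19 to 0.33 (median 0.06) in rosuvastatin mice and from -0.01 to 0.17 (median 0.06) in atorvastatin mice. The lower end of the vehicle group lay below all statin-treated mice and its upper end among them. The mean was higher than in vehicle by 0.20 with rosuvastatin (SE 0.11, 95% interval -0.03 to 0.43, adjusted p = 0.731 by limma), with 5 of 6 mice above the vehicle mean. With atorvastatin it was also higher by 0.20 (SE 0.11, interval -0.03 to 0.43, adjusted p = 0.593), with 6 of 6 mice above. Between the statins the difference was 0.0014 (interval -0.23 to 0.23).

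Slco1b2 was a very bright probe, and its reference channel reached the scanner's ceiling on 20 of its 54 spots. All 3 spots were saturated on the arrays of vehicle 1, 2 and 3, of rosuvastatin 2 and of atorvastatin 3, and some spots were on those of rosuvastatin 3 and 4 and atorvastatin 4. A saturated reference can only be read too low, which raises the ratio before normalisation. How far it moved the normalised ratios below was not tested. The 8 arrays with a saturated spot had Slco1b2 log2 ratios of -0.05 to 0.33 (median 0.14), whereas the 10 arrays without one had -0.43 to 0.11 (median -0.07). Saturation was unevenly spread over the images, with 2 of the 11 arrays of the 197-pixel ring affected and 6 of the other 7. On the arrays without a saturated spot, vehicle mice (n = 3) lay between -0.43 and -0.16, rosuvastatin mice (n = 3) between -0.19 and 0.05 and atorvastatin mice (n = 4) between -0.01 and 0.11. In this subset all atorvastatin mice were above all vehicle mice, while the rosuvastatin mice overlapped the vehicle range. Of all 188 probes, 7 (3.72%) separated atorvastatin from vehicle mice on these same arrays. The vehicle mice there were 4, 5 and 6, and the array of vehicle 5 stood apart from the others. On the arrays with a saturated spot, vehicle mice (-0.05 to 0.14) and atorvastatin mice (0.06 to 0.17) overlapped, and rosuvastatin mice lay between 0.07 and 0.33.

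**Figure D2:**
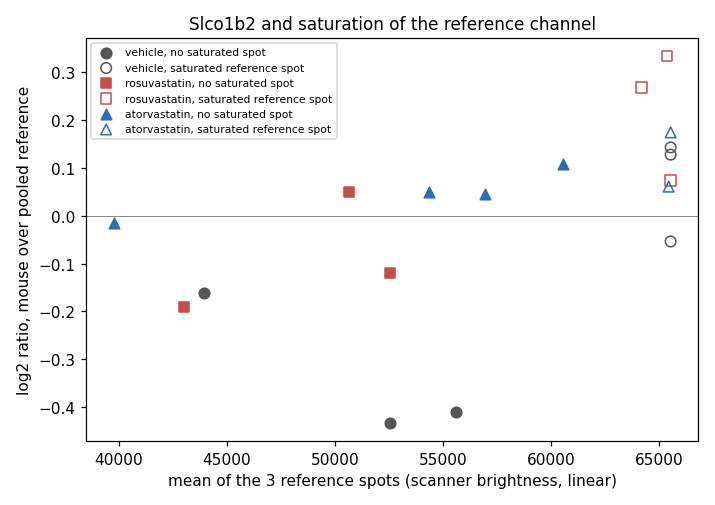
Slco1b2 log2 ratio of each of the 18 mice against the mean brightness of its 3 reference spots on a linear scale, with open symbols for arrays that had at least 1 saturated reference spot. The 8 open symbols lie between -0.05 and 0.33, and the 10 filled symbols between -0.43 and 0.11.

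When saturated spots were taken as missing, a setting chosen after seeing the data, 13 arrays remained for Slco1b2, 3 of them vehicle. Those were vehicle 4, 5 and 6, among them the array of vehicle 5 that stood apart. The difference from vehicle was then 0.38 with rosuvastatin (SE 0.12, adjusted p = 0.527) and 0.36 with atorvastatin (SE 0.12, adjusted p = 0.375). Within the 11 arrays of the 197-pixel ring it was 0.22 with rosuvastatin (adjusted p = 0.962) and 0.29 with atorvastatin (adjusted p = 0.996). Without vehicle 5 and atorvastatin 4 it was 0.14 and 0.15. All settings that gave a value placed Slco1b2 above vehicle with both statins, and no adjusted p was below 0.375. The deposited ratios and the planned form of the saturation setting gave no value for Slco1b2.

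The largest difference of Slc10a1 from vehicle, on either probe with either statin, was 0.054 (probe 2 with rosuvastatin). Probe 1 ran from -0.44 to 0.34 (median 0.03) in vehicle, from -0.25 to 0.33 (median -0.01) in rosuvastatin and from -0.27 to 0.20 (median -0.03) in atorvastatin mice. Probe 2 ran from -0.38 to 0.02 (median -0.03), from -0.28 to 0.34 (median -0.11) and from -0.36 to 0.10 (median -0.13) in the same groups. The groups overlapped almost whole on both probes, with vehicle 5 the lowest vehicle mouse on each, rosuvastatin 5 the highest rosuvastatin mouse and atorvastatin 4 the lowest atorvastatin mouse. Differences from vehicle were -0.02 (interval -0.29 to 0.24) and 0.05 (interval -0.17 to 0.28) with rosuvastatin on probes 1 and 2. With atorvastatin they were -0.02 (interval -0.29 to 0.24) and -0.01 (interval -0.24 to 0.21). All adjusted p of Slc10a1 in these contrasts were 0.909 or higher.

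The pair of Slc10a1 probes allowed a look at how far mouse-to-mouse variation was shared by independent spots of 1 gene. Across the 18 mice their log2 ratios had a Pearson r of 0.84 and a Spearman rho of 0.85, and the difference of probe 1 minus probe 2 averaged 0.09 (SD 0.11, n = 18 arrays). With the group means removed r was 0.85, and 0.80 without vehicle 5 and atorvastatin 4. Both probes share the RNA, the array and its normalisation, so this likeness includes any error of the array.

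The canalicular exporters of bile salts and conjugates, Abcb11 and Abcc2, differed little between groups. Abcb11 ran from -0.10 to 0.37 (median -0.05) in vehicle, from -0.28 to 0.32 (median 0.16) in rosuvastatin and from -0.13 to 0.25 (median 0.04) in atorvastatin mice. In the rosuvastatin group, mice 1 to 4 had values of 0.14 to 0.32, and mice 5 and 6 had -0.28 and -0.11, so the group mean of 0.08 ± 0.23 (SD, n = 6) lay between them. Rosuvastatin 5 and 6 were also the lowest of their group in Slco1b2 (-0.19 and -0.12) and Abcb4 (0.0026 and -0.037). The same held for Abcb1a (0.09 and 0.13) and Abcb1b (-0.04 and 0.08), but not for Slc10a1, Abcc2 or Abcc1. The arrays of these mice had the lowest median reference brightness of all (267.5 and 324), whose part was not tested. The Abcb11 difference from vehicle was 0.04 with rosuvastatin (interval -0.18 to 0.27) and 0.01 with atorvastatin (interval -0.21 to 0.24). Abcc2 ran from -0.06 to 0.36 (median 0.16) in vehicle, from -0.12 to 0.27 (median 0.11) in rosuvastatin and from -0.03 to 0.40 (median 0.10) in atorvastatin mice. These ranges nearly coincide, and the differences from vehicle were -0.06 (interval -0.25 to 0.13) and -0.03 (interval -0.22 to 0.16).

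Abcb4, the phospholipid exporter, was lowest and least variable with atorvastatin. The SD was also smallest with atorvastatin for Slco1b2, Abcb11, Abcb1a, Abcb1b and Slc10a1 probe 1, but not for Slc10a1 probe 2, Abcc2 or Abcc1. Abcb4 ran from -0.26 to 0.43 (median 0.06) in vehicle, from -0.04 to 0.37 (median 0.20) in rosuvastatin and from -0.10 to 0.08 (median 0.03) in atorvastatin mice. Each atorvastatin mouse lay below the mean of the vehicle group and below that of the rosuvastatin group, although inside the range of the vehicle group. The difference of atorvastatin from rosuvastatin was -0.16 (SE 0.10, interval -0.38 to 0.06, adjusted p = 0.653). From vehicle it was -0.10 for atorvastatin (interval -0.33 to 0.12, adjusted p = 0.788) and 0.06 for rosuvastatin (interval -0.16 to 0.28). The former was -0.041 without vehicle 4 and -0.18 without vehicle 3. The order of the group means was rosuvastatin, vehicle, atorvastatin, with no neighbours apart by more than their spread.

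The P-glycoprotein genes export a broad range of drugs, and both had ratios above 0 in most mice of all groups, a level that can include dye bias. Abcb1a ran from -0.14 to 0.81 (median 0.32) in vehicle, from 0.09 to 0.58 (median 0.22) in rosuvastatin and from 0.06 to 0.32 (median 0.25) in atorvastatin mice. The SD was 0.33 in vehicle, 0.18 in rosuvastatin and 0.11 in atorvastatin mice, and vehicle 1 and vehicle 6 formed the ends of the whole range. Abcb1a differed from vehicle by -0.03 with rosuvastatin (interval -0.30 to 0.24) and by -0.08 with atorvastatin (interval -0.35 to 0.19). Abcb1b ran from -0.10 to 0.26 (median 0.18) in vehicle, from -0.04 to 0.41 (median 0.27) in rosuvastatin and from 0.01 to 0.21 (median 0.16) in atorvastatin mice. All 6 atorvastatin mice lay below the rosuvastatin mean, yet rosuvastatin 5 lay below them and rosuvastatin 6 among them. The difference between the statins was -0.09 (interval -0.26 to 0.09, adjusted p = 0.699), and those from vehicle were 0.07 for rosuvastatin (interval -0.10 to 0.24) and -0.02 for atorvastatin (interval -0.19 to 0.16). Abcb1a and Abcb1b are close paralogues, and whether their probes also bind the transcript of the other gene was not tested.

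Abcc1, the basolateral conjugate exporter, had a ratio below 0 in all mice but 1, a level that can also include dye bias. It ran from -0.46 to -0.14 (median -0.28) in vehicle, from -0.63 to -0.23 (median -0.42) in rosuvastatin and from -0.43 to 0.34 (median -0.31) in atorvastatin mice. The value of 0.34 belonged to atorvastatin 4, and the next highest atorvastatin mouse had -0.07. Atorvastatin was higher than rosuvastatin by 0.24 (SE 0.12, interval -0.01 to 0.49, adjusted p = 0.653), with 6 of 6 atorvastatin mice above the rosuvastatin mean, but by 0.13 without atorvastatin 4. Against vehicle the differences were -0.14 with rosuvastatin (interval -0.39 to 0.11) and 0.10 with atorvastatin (interval -0.15 to 0.35), the latter -0.0070 without atorvastatin 4. The probe was dim, with a sample brightness of 149 to 411 over a local background of 64 to 144, and it passed the background limit on 15 arrays (5 vehicle, 6 rosuvastatin and 4 atorvastatin). The Abcc1 value of vehicle 3 therefore rests on no spot above background, and those of atorvastatin 3 and 6 on 1 spot each.

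**Figure D3:**
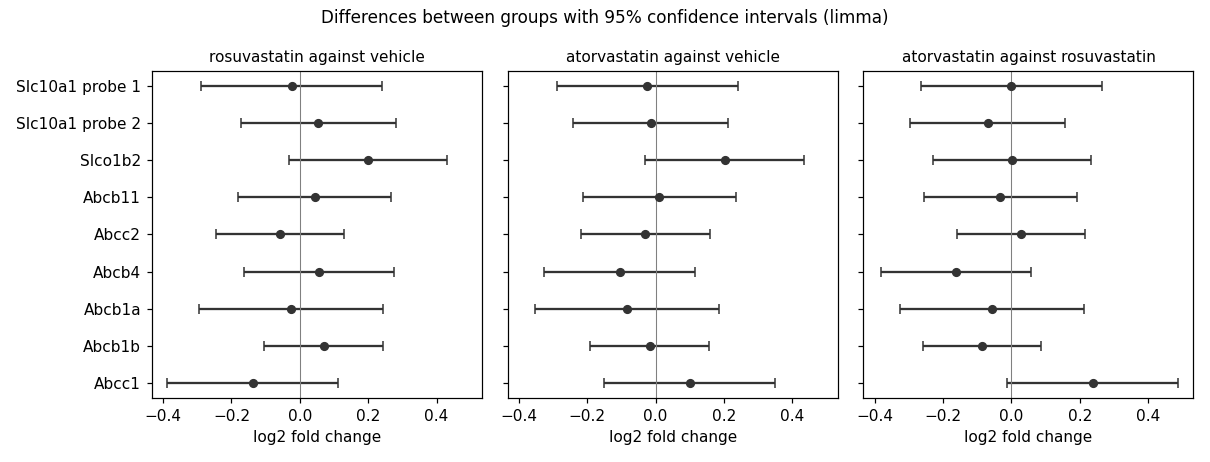
Difference between group means for the 9 transporter probes as a log2 fold change (points) with its 95% confidence interval (bars) from limma, with 1 panel for each comparison. All intervals include 0, and the outermost bounds are -0.39 and 0.49.

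Tested across the 3 groups at once with the moderated F-test of limma, the smallest p of the transporters belonged to Slco1b2 (adjusted p = 0.662) and Abcc1 (adjusted p = 0.662). Of all probes, 6.91% passed an unadjusted p of 0.05 in this test. The SD within groups, pooled over the 3 groups, was 0.14 for Abcb1b to 0.23 for Abcb1a, around the median of 0.197 for all probes on the array. In single groups the SD ran from 0.064 (Slco1b2, atorvastatin) to 0.33 (Abcb1a, vehicle). The spots of a probe on 1 array differed by a mean SD of 0.05 to 0.11. The spread between mice was 3.99 times that between spots for Slco1b2 and 1.36 times for the dim Abcb1b. Within the 11 arrays of the 197-pixel ring, the differences from vehicle of the remaining 8 probes lay between -0.18 (Abcc1) and 0.17 (Slc10a1 probe 2) with rosuvastatin, and between -0.14 (Abcb4) and 0.09 (Abcb11) with atorvastatin.

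Beyond the group means, the probes that varied most like each transporter from mouse to mouse were looked up. The likeness is Pearson's r of deviations from the group means over 18 mice. It is a description, since all probes of an array share its RNA, labelling and normalisation. For Slc10a1 probe 2 the closest patterns were those of Mvk (mevalonate kinase, r = 0.80, rho = 0.73) and Fdft1 (squalene synthase, r = 0.78, rho = 0.75), and for probe 1 that of Hmgcs1 (cytosolic HMG-CoA synthase, r = 0.73, rho = 0.56) was among the closest 2. Rosuvastatin 5 was the highest rosuvastatin mouse on both Slc10a1 probes and in Fdft1 and Mvk, and vehicle 5 and atorvastatin 4 were the lowest of their groups in each of these. Without the latter pair r was 0.71 for Mvk, 0.69 for Fdft1 and 0.49 for Hmgcs1. Without the 2 mice farthest from the median it was 0.63, 0.77 and 0.49. Within the 197-pixel ring (n = 11) it was 0.86, 0.81 and 0.60.

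The closest pattern to Abcb11 was that of Clock, a core gene of the circadian oscillator (r = 0.86, rho = 0.86). Without vehicle 5 and atorvastatin 4 this was 0.87, within the 197-pixel ring 0.85, and without the 2 mice farthest from the median 0.75. Rosuvastatin 5 and 6 were the lowest rosuvastatin mice in Clock (-0.38 and -0.27) as in Abcb11, and r without this pair was not computed. Clock was also among the 2 closest patterns to Abcb4 (r = 0.66, rho = 0.66) and Abcb1b (r = 0.75, rho = 0.69). Abcb1b was closest to the probe named Nr3c4 in the files (r = 0.75, rho = 0.76), and Abcb4 to Cyp4b1 (r = 0.72, rho = 0.60, and 0.45 without the 2 farthest mice). For Abcc2 the closest were the probe named Ppargc1 in the files (r = 0.81, rho = 0.75) and Pon2, a paraoxonase (r = 0.71, rho = 0.71). For Abcb1a, C4bp, a complement regulator, was among the closest 2 (r = 0.66, rho = 0.60, and 0.62 without the 2 farthest mice).

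The closest pattern to Slco1b2 was that of Alb, serum albumin (r = 0.77, rho = 0.77), whose reference channel was saturated on all 18 arrays. The next was Abcb1b (r = 0.68, rho = 0.64, and 0.50 without the 2 farthest mice). Abcc1 was closest to Orm1 (r = 0.80, rho = 0.63) and Saa1 (r = 0.80, rho = 0.64), both acute phase proteins that the liver releases in inflammation. Atorvastatin 4 was the highest of all mice in Abcc1 and deviated upwards by 1.17 in Orm1. Without it and vehicle 5 the r was 0.63 for Orm1 and 0.64 for Saa1, and within the 197-pixel ring 0.68 and 0.59. The reference was saturated on 11 arrays for Orm1 and on 4 for Saa1.

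**Figure D4:**
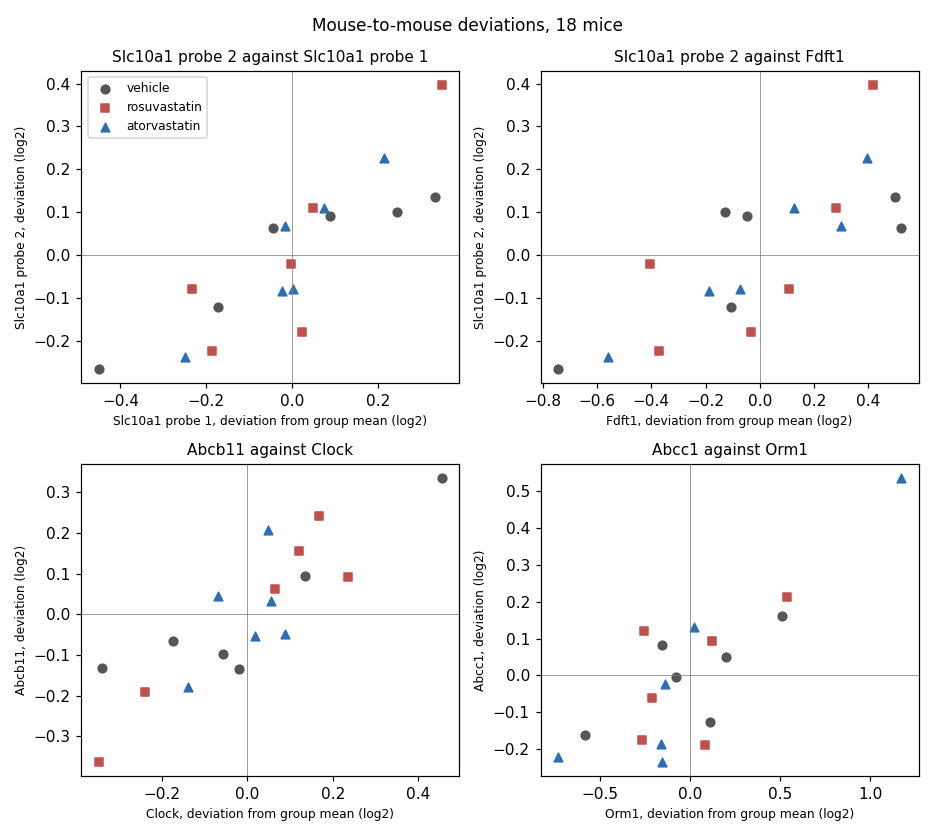
Deviation of each of the 18 mice from its group mean in 4 pairs of probes, both axes in log2 units. The pairs rise together (r = 0.85 for the Slc10a1 probes, 0.78 for Fdft1 with Slc10a1 probe 2, 0.86 for Clock with Abcb11 and 0.80 for Orm1 with Abcc1), and in the last pair atorvastatin 4 stands alone at the upper right.

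Among the canalicular exporters, 9 of 10 pairs had r of 0.22 to 0.65 with group means removed, and Abcc2 with Abcb1b had -0.02. Slco1b2 had r of 0.30 to 0.68 with 4 of these 5 exporters and of 0.0066 with Abcc2. Rosuvastatin 5 and 6 were the lowest rosuvastatin mice in Slco1b2, Abcb11, Abcb4, Abcb1a and Abcb1b, and r without them was not computed. The median r over all pairs of probes on the array was -0.0045, with a range from -0.92 to 0.999. How many of all pairs reach such values was not counted, so the counts above have no background beside them. Slco1b2 with Abcb1b (r = 0.68), Abcb11 with Abcb1b (0.65), Slco1b2 with Abcb1a (0.65), Abcb11 with Abcb4 (0.52) and Abcc2 with Abcb1a (0.52) were the closest pairs of different genes over the 18 mice. The uptake carriers Slc10a1 and Slco1b2 had r of 0.19 and 0.00015 for probes 1 and 2, and Slc10a1 with Abcb11 had 0.01 and -0.19. The lowest r was that of Slc10a1 probe 1 with Abcc1, at -0.40.

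Other transporters of bile acids, organic anions and sterols were listed from textbook knowledge, and 8 of 18 were measured. None passed the adjusted threshold in a comparison, and 2 of 8 lay above vehicle with each statin (medians -0.07 and -0.08). Of all probes, 48.4% and 45.7% lay above vehicle. Without vehicle 5 and atorvastatin 4, 5 of 8 lay above vehicle with rosuvastatin (median 0.02). The basolateral exporter Abcc3 (MRP3) ran from -0.74 to 0.16 in vehicle, from -0.24 to 0.29 in rosuvastatin and from -0.23 to 0.37 in atorvastatin mice. The vehicle group reached lower than the others and overlapped both. Its difference from vehicle was 0.28 with rosuvastatin (adjusted p = 0.723) and 0.35 with atorvastatin (interval 0.04 to 0.66, adjusted p = 0.533), the former 0.18 without vehicle 6. The uptake carrier Slco1a1 differed by 0.33 with rosuvastatin (adjusted p = 0.79) and by -0.38 between the statins (adjusted p = 0.653), with a signal above background in only 4 rosuvastatin, 2 vehicle and 1 atorvastatin mice. Rosuvastatin 4 had a Slco1a1 log2 ratio of 1.10 against a group median of -0.02, and without it the differences were 0.14 and -0.19, while without atorvastatin 3 that between the statins was -0.57. Abcg5, a half-transporter that exports sterols, had a value of -0.53 with atorvastatin (interval -1.13 to 0.07, adjusted p = 0.593) and -0.31 between the statins (adjusted p = 0.699). Vehicle 5 had an Abcg5 log2 ratio of 1.58, and without it the former was -0.27, while the latter was -0.19 without atorvastatin 1.

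Of the receptors and factors that act on transporter genes, 8 of 14 were measured and none passed the adjusted threshold. With each statin 6 of 8 lay above vehicle, with medians of 0.07 and 0.16, beside 48.4% and 45.7% of all probes. Nr1i2 (PXR) had a difference of 0.41 from vehicle with rosuvastatin (adjusted p = 0.578) and of -0.27 between the statins (adjusted p = 0.653), although it was above background in only 3 rosuvastatin and 2 vehicle mice. Without rosuvastatin 3 the latter was -0.17. Nr1i3 (CAR) ran from -0.57 to -0.17 in vehicle and from -0.20 to 0.31 in rosuvastatin mice, nearly without overlap, with a difference of 0.37 (interval 0.12 to 0.62, adjusted p = 0.584). With atorvastatin Nr1i3 differed from vehicle by 0.27 (adjusted p = 0.533) and Ppara, the fatty acid receptor, by 0.37 (adjusted p = 0.424), the Nr1i3 value being 0.18 without vehicle 5 and atorvastatin 4. Nr1h4 (FXR), the receptor tied to Abcb11, ran from -0.26 to 0.29 in vehicle, from -0.18 to 0.10 in rosuvastatin and from -0.32 to -0.0037 in atorvastatin mice. The difference between the statins was -0.21 (interval -0.40 to -0.03, adjusted p = 0.653), while Abcb11 differed there by -0.03.

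Of the genes of bile acid synthesis, 5 of 9 were measured, and none passed the adjusted threshold. Above vehicle lay 4 with rosuvastatin and 3 with atorvastatin, beside 48.4% and 45.7% of all probes. Without vehicle 5 and atorvastatin 4 the counts were 3 and 2 of 5 (medians 0.08 and -0.01). Cyp7b1, of the alternative pathway, had values of 0.26 with rosuvastatin (interval 0.06 to 0.45, adjusted p = 0.723), 0.06 with atorvastatin (adjusted p = 0.904) and -0.20 between the statins (adjusted p = 0.653). Cyp39a1, an oxysterol hydroxylase, had -0.20 with rosuvastatin (adjusted p = 0.79) and -0.13 with atorvastatin (adjusted p = 0.869). Cyp7a1, the rate-limiting enzyme of the classic pathway, had -0.12 between the statins (adjusted p = 0.848). Its signal was above background in only 3 atorvastatin and 5 rosuvastatin mice. Single mice moved the smaller of these values: the Cyp7b1 value with atorvastatin was -0.0047 without vehicle 5, those of Cyp39a1 were -0.33 and -0.26 without vehicle 5 and -0.11 and -0.044 without vehicle 1, and that of Cyp7a1 was -0.22 without atorvastatin 1 and -0.048 without rosuvastatin 5.

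The P450s that PXR and CAR are known to induce were measured for 5 of 9 genes. All 5 lay above vehicle with rosuvastatin (median 0.18), as did 48.4% of all probes. With atorvastatin all 5 lay below (median -0.10), where 45.7% of all probes lay above. None passed the threshold, and with group means removed the mean of the list had an SD of 0.23 between mice. Without vehicle 5 and atorvastatin 4 the count above vehicle with rosuvastatin was 3 of 5 (median 0.08). Cyp3a11 had 0.29 with rosuvastatin (adjusted p = 0.802), -0.12 with atorvastatin (adjusted p = 0.923) and -0.40 between the statins (adjusted p = 0.653). Cyp3a13 had 0.18 with rosuvastatin (adjusted p = 0.79) and -0.19 between the statins (adjusted p = 0.675), and Cyp2b9 -0.10 with atorvastatin (adjusted p = 0.898). Without atorvastatin 2 the Cyp3a11 values with atorvastatin were 0.11 against vehicle and -0.17 between the statins, that of Cyp3a13 between the statins was -0.11, and that of Cyp2b9 was -0.016. Without vehicle 5 the Cyp2b9 value was -0.18, and without vehicle 3 that of Cyp3a13 with rosuvastatin was 0.10.

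Acute phase genes, among them Orm1 and Saa1 with the patterns closest to Abcc1, were measured for 8 of 10 genes, and none passed the adjusted threshold. With rosuvastatin 2 of 8 lay above vehicle (median -0.36) and with atorvastatin 6 of 8 (median 0.11), beside 48.4% and 45.7% of all probes. The atorvastatin count was 3 of 8 (median -0.28) without vehicle 5 and atorvastatin 4. Between the statins all 8 were higher with atorvastatin (median 0.28), where 52.1% of all probes were. Without that pair of arrays the count was 8 of 8 (median 0.10). These members did not vary independently: in atorvastatin 4, Saa1, Saa2 and Saa3 deviated from the group mean by 5.55, 5.51 and 5.04. With group means removed, the mean of the list had an SD of 0.80 between mice. The named members were Apcs and Orm1 with rosuvastatin (-0.37 and -0.35, adjusted p = 0.79 for both), Saa4 and Crp with atorvastatin (0.17 and 0.17, adjusted p = 0.593 for both) and Saa4 and Saa3 between the statins (0.12 and 1.20, adjusted p = 0.684 for both). The Saa3 value rested on atorvastatin 4, whose log2 ratio was 1.88, and was 0.19 without it. With atorvastatin, Saa4 was 0.10 without vehicle 6 and Crp 0.10 without atorvastatin 4.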

How the data were processed

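RNA of the liver of 18 mice was hybridised to 2-colour Steroltalk cDNA arrays, each mouse in Cy3 against a pool of all samples in Cy5, with the same dyes throughout. The deposited intensity values are the median brightness of each spot and of its local background, with nothing subtracted. The image software is not given in the sources used here. The authors also deposited log2 ratios, with unstated normalisation and column medians of -0.32 to 0.564. Set against the scanner values they held mouse over pool (r = 0.924 to 0.997 across probes), and they served as an alternative.

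In R 4.3.3 with limma 3.58.1, background was corrected by normexp (offset 50), a loess curve was removed from each array's log2 ratios (control spots given no weight), and the 3 spots of a probe were averaged. Probes with a signal above background plus 2 SD on at least 6 of 18 arrays were kept (188 of 289, of which 144 passed on every array). Saturated spots were kept. One limma fit over all arrays gave the 3 comparisons, two-sided, with Benjamini-Hochberg adjustment over 188 probes and a threshold of 0.05. The fit was tested on simulated data. The number of arrays limits precision.

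The transporters and the gene lists were chosen with earlier results of these data known. All 9 transporter probes were named, as were the 2 members with the smallest p of each list in a comparison and the 2 closest patterns of each probe. Some genes that this rule names are not reported here. Gene names were matched to RefSeq (GRCm38.p6): 212 of 289 probes by symbol, 8 by spelling and 49 through an older symbol. Replicate numbers are not known to pair mice. Alternatives covered background correction, normalisation, the deposited ratios, filters, saturated spots, spot averaging, array weights, the replicate number, the image ring and each mouse left out.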

Additional observations from a re-analysis of the deposited data

Results flagged for a closer look

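Abcb1b in vehicle 5 had a log2 ratio of -0.10, while the nearest of the other 5 vehicle mice had 0.14 and the highest 0.26. The gap took up 0.663 of the range of the group, above Dixon's critical value for 6 values. It was the only one of 27 groups (9 probes in 3 groups) to pass it, and chance passes it in about 1 in 20 groups. Vehicle 5 was also the lowest vehicle mouse on both Slc10a1 probes (-0.44 and -0.38), its array stood apart from the others (median correlation 0.25), and the Abcb1b probe was dim (brightness 176 to 285). Their part in the value was not tested.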

How the results depend on the processing

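No transporter passed the adjusted threshold under any of 32 other settings, 18 of which left out 1 mouse, and the 128 counts of called transporters stayed at 0. Of the 855 differences of single probes, 781 kept their sign and 74 changed it. The lowest adjusted p of all was 0.375 and the lowest unadjusted p 0.00859, both for Slco1b2 with saturated spots missing, and 16 values passed an unadjusted p of 0.05, all of them Slco1b2 with a statin against vehicle or Abcc1 between the statins. Slco1b2 above vehicle with both statins, Abcb4 lower with atorvastatin than with vehicle or rosuvastatin, Abcc1 below vehicle with rosuvastatin and higher with atorvastatin than with rosuvastatin, and Abcc2 below vehicle with rosuvastatin were the 7 differences that kept their sign throughout. Slco1b2 gave no value from the deposited ratios or under the planned form of the saturation setting, where too few vehicle arrays were left, and Abcc1 gave none where a signal above background was required on every array.

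Signs changed as follows, on the log2 scale, and the cause was not tested. The Slc10a1 probe 1 difference between the statins became 0.012 with plain background subtraction, 0.00038 with no background correction, 0.0013 with median centring, 0.012 with the median of spots, 0.039 with array weights, 0.0016 with the image ring as a block and 0.049 without vehicle 5 and atorvastatin 4. Median centring gave 0.011 for Abcc2 and 0.058 for Abcb1b with atorvastatin against vehicle, and 0.00073 for Abcb1b between the statins. The deposited ratios gave -0.012 for Abcb4 and -0.083 for Abcb1b with rosuvastatin, and -0.053 for Abcb11 with atorvastatin. The median of spots gave 0.0036 for Slc10a1 probe 2 with atorvastatin, and array weights gave -0.040 for Slc10a1 probe 2 with rosuvastatin and -0.028 for Abcc2 between the statins. The Slco1b2 difference between the statins became -0.033 with the image ring as a block and -0.029 with saturated spots missing. Within the 11 arrays of 1 ring size, rosuvastatin against vehicle gave 0.095 for Slc10a1 probe 1, -0.044 for Abcb4 and 0.12 for Abcb1a. There, atorvastatin against vehicle gave 0.068 and 0.066 for Slc10a1 probes 1 and 2, 0.021 for Abcc2, 0.0087 for Abcb1a and -0.041 for Abcc1, and Abcb11 gave 0.016 between the statins. Without vehicle 5 and atorvastatin 4 the last was 0.0035.

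With 1 mouse left out at a time, these differences crossed 0. For rosuvastatin against vehicle they were Abcb11 from -0.0052 to 0.12, Abcb1a from -0.11 to 0.077, Abcb4 from -0.017 to 0.12, Slc10a1 probe 1 from -0.11 to 0.043 and Slc10a1 probe 2 from -0.025 to 0.099. For atorvastatin against vehicle they were Abcb11 from -0.030 to 0.078, Abcb1a from -0.17 to 0.021, Abcb1b from -0.068 to 0.0073, Abcc1 from -0.0070 to 0.15, Abcc2 from -0.085 to 0.013, Slc10a1 probe 1 from -0.11 to 0.042 and Slc10a1 probe 2 from -0.068 to 0.033. For atorvastatin against rosuvastatin they were Abcb11 from -0.10 to 0.016, Abcb1a from -0.092 to 0.0060, Abcc2 from -0.026 to 0.064, Slc10a1 probe 1 from -0.047 to 0.070, Slc10a1 probe 2 from -0.11 to 0.010 and Slco1b2 from -0.051 to 0.054. Of the differences that did not cross 0, those that moved by over 1.5 times were Abcb1b (0.018 to 0.12) and Abcc2 (-0.10 to -0.015) with rosuvastatin, Abcb4 with atorvastatin (-0.18 to -0.041), and Abcb1b (-0.14 to -0.050) and Abcc1 (0.13 to 0.29) between the statins.

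With the replicate number as a block, Slco1b2 was 0.20 above vehicle with either statin (adjusted p = 0.471 and 0.469 by limma), and the count of calls stayed at 0. The numbers are not known to pair mice: 10 of 18 pairs of same-numbered mice had a correlation of deviations over 0.1 (-0.60 to 0.61), and 5 of 18 arrays correlated best with their own number. Signal limits Abcc1 and Abcb1b, which lay near background, and saturation limits Slco1b2.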
